A study of Mus musculus with 6 samples.

Results

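RNA of mouse liver was measured for 10 genes that make the long and unsaturated fatty acids of the cell. They were the elongases Elovl1, Elovl2, Elovl3, Elovl5 and Elovl6, the desaturases Fads1, Fads2, Fads3 and Fads6, and the stearoyl-CoA desaturase Scd2. The genes were chosen by name, with earlier results of these data known, so counts over them are descriptions. All 10 were found among the 21528 genes listed in the tables, and all 10 were among the 12225 genes with enough signal to be tested. Livers of wild-type (WT) mice were compared with livers of TRIM24 C52/55A knock-in (KI) mice, with 3 libraries per genotype. All mice were labelled C57BL/6 and were 5 months old, and had eaten a high-fat diet with 60% fat for 3 months, so no chow-fed liver enters any comparison here. The background strain of the knock-in line was C57Bl/6J. The KI mice were homozygous for an allele made by CRISPR/Cas9 in which cysteines 52 and 55 of the RING domain of the E3 ubiquitin ligase TRIM24 were replaced by alanine, which removes the ligase activity, and the WT mice were littermates from matings of heterozygotes. The allele is carried in every tissue from conception, so a difference in liver RNA need not arise within the liver. The labels number the libraries as replicates without stating that each is 1 mouse, so the p-values measure the spread between these libraries.

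Fatty acids are lengthened in the endoplasmic reticulum by a cycle that begins when an ELOVL enzyme joins a pair of carbons from malonyl-CoA to an acyl-CoA, after which a reductase, a dehydratase and a second reductase complete the step. Each ELOVL enzyme prefers certain chains: ELOVL6 lengthens palmitate, ELOVL1 and ELOVL3 act on saturated and monounsaturated long chains, and ELOVL5 and ELOVL2 act on polyunsaturated chains. Desaturases add double bonds with electrons passed on by cytochrome b5. FADS2 and FADS1 alternate with ELOVL5 and ELOVL2 to turn the essential fatty acids linoleate and alpha-linolenate into arachidonate, eicosapentaenoate and docosahexaenoate, and the liver is a main site of that route. The stearoyl-CoA desaturases instead make monounsaturated oleate and palmitoleate. SREBP-1c, LXR and PPARalpha are known regulators of many of these genes.

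The values were FPKM, fragments scaled to transcript length and library size, so a level per length that can be set side by side between genes. The number of reads per library is unknown, and the step size of the low values put the relative depths between 0.963 and 1.03 of the first WT library. The FPKM total was 644619 to 648221 in WT and 673244 to 676791 in KI, a difference that a rescaling to TPM removes. The rank correlation between libraries was 0.976 to 0.988 within a genotype and 0.969 to 0.976 between genotypes. Trim24 itself was at 4.85 to 5.96 FPKM in WT and at 4.31 to 8.46 FPKM in KI libraries, which does not check the genotype, since replaced codons leave the gene in place. The hepatocyte genes Apoa2, at 8684 to 14135 FPKM, and Cyp2e1, at 2145 to 3927 FPKM over the 6 libraries, fit the label liver. In whole tissue, fewer cells of a type and less RNA per cell cannot be told apart.

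Start-site sequences are shown for 4 of the genes, to set the promoters of 3 genes that fell, all of the polyunsaturated route, beside that of Elovl1, which was not called. The RefSeq promoter table of GRCm38.p6 held 7 of the 10 genes, and Fads1, Elovl3 and Scd2 had no entry. Elovl2 and Elovl1 had 2 windows each, of which the one nearest to the GENCODE start site was taken. Each window runs from 250 bases before the start site to 50 bases after it, on the strand of the gene. The windows are Elovl5 chr9:77917115-77917414 on the + strand, Fads2 chr19:10101454-10101753 on the - strand, Elovl2 chr13:41220354-41220653 on the - strand and Elovl1 chr4:118427843-118428142 on the + strand. Capitals mark matches on either strand to the motifs searched.
Elovl5: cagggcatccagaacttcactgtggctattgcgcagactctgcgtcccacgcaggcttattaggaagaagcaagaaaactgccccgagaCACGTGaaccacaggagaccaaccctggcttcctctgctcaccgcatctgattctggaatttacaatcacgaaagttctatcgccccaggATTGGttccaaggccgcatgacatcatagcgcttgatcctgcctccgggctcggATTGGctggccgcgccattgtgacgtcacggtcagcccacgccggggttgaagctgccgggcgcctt
Fads2: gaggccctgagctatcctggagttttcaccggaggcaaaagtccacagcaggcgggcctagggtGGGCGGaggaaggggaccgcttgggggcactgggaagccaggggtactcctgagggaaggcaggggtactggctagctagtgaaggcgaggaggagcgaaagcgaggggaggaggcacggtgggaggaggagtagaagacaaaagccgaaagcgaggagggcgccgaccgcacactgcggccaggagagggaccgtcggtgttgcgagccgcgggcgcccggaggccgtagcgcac
Elovl2: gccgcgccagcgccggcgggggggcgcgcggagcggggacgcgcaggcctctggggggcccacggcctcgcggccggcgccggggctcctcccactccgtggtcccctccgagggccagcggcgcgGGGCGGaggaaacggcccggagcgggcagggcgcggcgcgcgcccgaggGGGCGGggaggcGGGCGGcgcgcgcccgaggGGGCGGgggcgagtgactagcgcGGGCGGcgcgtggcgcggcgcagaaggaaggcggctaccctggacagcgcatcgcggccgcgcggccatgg
Elovl1: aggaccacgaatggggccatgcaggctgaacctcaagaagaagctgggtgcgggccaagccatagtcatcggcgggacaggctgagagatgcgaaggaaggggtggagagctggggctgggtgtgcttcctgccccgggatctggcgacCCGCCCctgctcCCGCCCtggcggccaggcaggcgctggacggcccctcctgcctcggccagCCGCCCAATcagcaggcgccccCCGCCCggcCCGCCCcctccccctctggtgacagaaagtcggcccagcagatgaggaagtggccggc

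The motifs were CCAAT (the NF-Y box), GGGCGG (the Sp/KLF box), TCACNCCAC (a sterol regulatory element), CACGTG (an E-box), AGGTCA (the core of nuclear receptor sites) and TATAAA (the TATA box), each read on both strands. Elovl5 held 2 NF-Y boxes, which start 71 and 17 bases before the start site on the opposite strand, and 1 E-box 161 bases before it. Fads2 held 1 Sp/KLF box, Elovl2 held 5 in a window with 84.7% G and C, and Elovl1 held 5 Sp/KLF boxes and 1 NF-Y box that shares bases with one of them. GGGCGG was thus shared by Fads2 and Elovl2, and no motif of this set was in all 3 windows of genes that fell. Over the 32851 promoters of the table, 37.4% held CCAAT, 35.7% GGGCGG, 1.24% TCACNCCAC, 7.15% CACGTG, 16.3% AGGTCA and 13.6% TATAAA. Neither the sterol regulatory element nor the TATA box was matched in any of the 7 windows, which says only that these letters are not there. Elovl6 held 1 AGGTCA, Fads6 held 2, and both lie in windows of genes that were not called.

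The 4 genes of the polyunsaturated route, Fads2, Elovl5, Fads1 and Elovl2, fell in TRIM24 C52/55A liver, while the elongase Elovl3 rose. In the limma test on log2(FPKM + 1), with p-values adjusted by Benjamini and Hochberg over all genes tested and called under 0.05, 4 of the 10 genes were called lower, against 6.09% of all genes tested, and 1 was called higher, against 1.64%. Every KI library lay below every WT library in the same 4 genes, against 22.5% of all genes tested, and above every WT library in Elovl3, against 6.31%. The median log2 fold change was -0.42 over the 10 genes and -0.08 over all genes tested. The 5 genes called kept their direction under all 15 alternatives tried, and leaving out the KI library 2 left all 5 called. The count of 5 fell to 2 without WT library 1 and to 2 without KI library 1, and was 6 without KI library 3. With no filter on low values, 21528 genes were tested and 1 of the 10 genes, Fads2, was called. Of the calls over all genes, 78.8% were lower in KI, against 62.3% after median-of-ratios scaling and 59.7% after quantile normalization, where 3 members were called lower in each. Rescaling to TPM went the other way: 87.3% of the calls were lower, with 5 members called lower and a median log2 fold change of -0.14 over all genes tested.

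**Figure D1:**
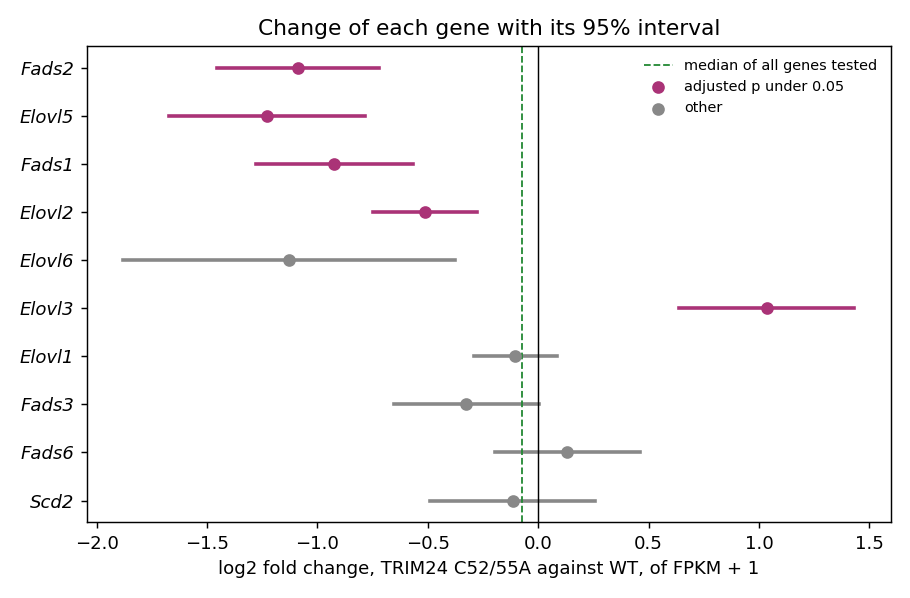
Log2 fold change of FPKM + 1 between TRIM24 C52/55A and WT liver (points) with its 95% interval from limma (lines) for each of the 10 genes, in purple where the adjusted p was under 0.05; the dashed line is the median of all genes tested. Fads2, Elovl5, Fads1 and Elovl2 lie below 0 with their whole interval, Elovl3 lies above it, and Elovl6 has the widest interval, from -1.88 to -0.38.

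Fads2, the delta-6 desaturase that opens the polyunsaturated route (ENSMUSG00000024665, chromosome 19 from 10064164 to 10101503, - strand, GRCm38), was at 494, 440.5 and 415.5 FPKM in the WT libraries. It was at 166, 212 and 266 FPKM in the KI libraries. All 3 KI values lay below the lowest WT value, and the KI mean of 215 ± 50.5 FPKM (SD, n = 3) was 0.477 times the WT mean of 449.9 ± 39.9 FPKM. The log2 fold change was -1.09 (SE 0.16, 95% interval -1.46 to -0.72, limma adjusted p = 0.00833). It was the only one of the 10 genes called under each of the 15 alternatives, with adjusted p from 0.00217 to 0.0461. The exact permutation test on FPKM gave a two-sided p = 0.1, the smallest that 3 against 3 libraries allow, and it gave the same value for the 4 other genes whose groups did not overlap.

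Elovl5, which lengthens the products of FADS2 (ENSMUSG00000032349, chromosome 9 from 77917364 to 77984519, + strand), was the most abundant of the 10 mRNAs in WT liver, at 725, 569 and 479 FPKM. In KI liver it was at 193, 257 and 308 FPKM. Its groups were separated by a wide gap, from 308 to 479 FPKM, and the mean went from 591 ± 124 to 253 ± 57.9 FPKM. The log2 fold change of -1.23 (SE 0.19, 95% interval -1.67 to -0.78, limma adjusted p = 0.0106) was the lowest among the 10 genes, and the call was lost only with no filter on low values (adjusted p = 0.0539).

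Fads1, the delta-5 desaturase that makes arachidonate and eicosapentaenoate (ENSMUSG00000010663, chromosome 19 from 10182888 to 10196870, + strand), was at 292, 257 and 227 FPKM in WT. The KI libraries held 114, 127 and 170 FPKM, a mean 0.531 times that of WT (137 ± 29.4 against 258.5 ± 32.7 FPKM). The groups did not overlap, and the log2 fold change was -0.92 (SE 0.15, 95% interval -1.28 to -0.57, limma adjusted p = 0.0132). The adjusted p was 0.0540 without WT library 1, 0.0510 without KI library 1 and 0.0565 with no filter. Fads1 and Fads2 lie next to each other and are read outward from start sites 81.1 kb apart in the GENCODE annotation. The level of Fads2 was 1.69, 1.71 and 1.84 times that of Fads1 in WT and 1.45, 1.67 and 1.57 times in KI. Each KI ratio was thus below the lowest WT ratio.

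Elovl2, which makes the longest polyunsaturated chains, the precursors of docosahexaenoate (ENSMUSG00000021364, chromosome 13 from 41182495 to 41220405, - strand), was at 288.5, 282 and 228 FPKM in WT and at 177, 184 and 195 FPKM in KI. The values did not overlap, yet the change was the smallest of the genes that fell, at 0.696 times the WT mean (185 ± 9.35 against 266 ± 32.9 FPKM). The log2 fold change was -0.51 (SE 0.10, 95% interval -0.75 to -0.28, limma adjusted p = 0.0231). The call was lost under 7 of the 15 alternatives: the adjusted p was 0.0875 without WT library 1, 0.0800 without WT library 2 and 0.0926 without KI library 1, and it was 0.0683 with no filter, 0.0701 after median-of-ratios scaling and 0.112 after quantile normalization. With the replicate number as a block it was 0.0583.

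**Figure D2:**
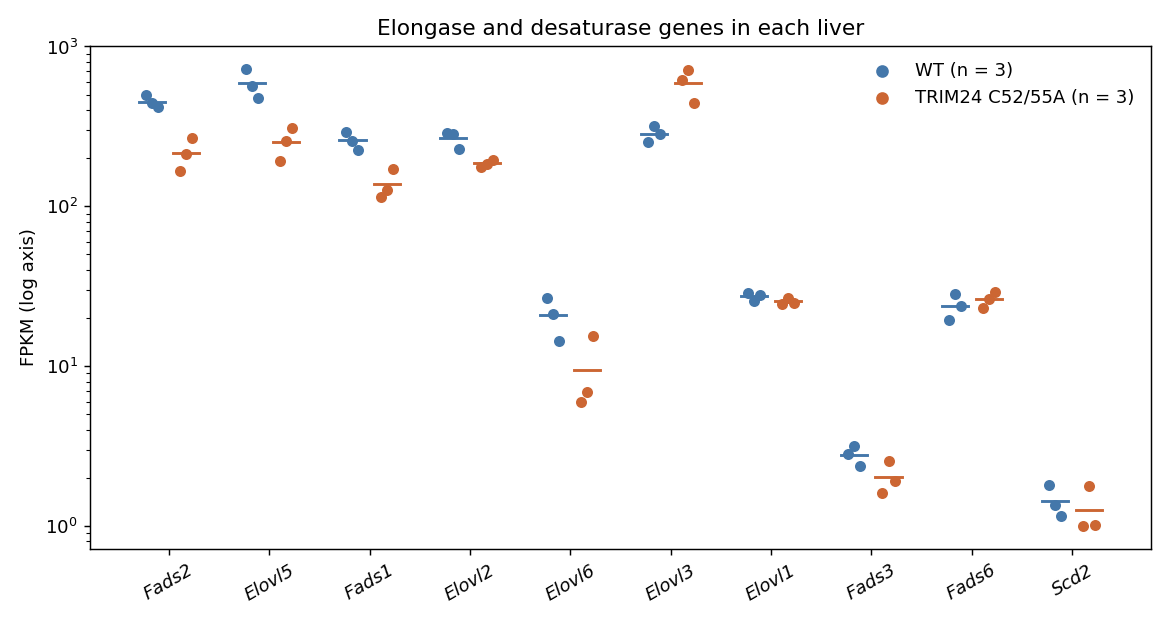
FPKM of each gene on a log axis in the 3 WT libraries (blue) and the 3 TRIM24 C52/55A libraries (orange); each point is a library and each short line a group mean. Fads2, Elovl5, Fads1 and Elovl2 separate downward and Elovl3 upward, from 251.5 to 317 FPKM in WT to 440 to 716 FPKM in KI, while the points of the other genes overlap.

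Among the elongases of saturated and monounsaturated chains, Elovl3 rose, and Elovl6 and Elovl1 were not called. Elovl3, which in mouse liver is known for a higher level in males and for daily cycling (ENSMUSG00000038754, chromosome 19 from 46131897 to 46135307, + strand), was at 251.5, 317 and 282 FPKM in WT and at 617, 716 and 440 FPKM in KI. Every KI library was above the highest WT library, and the mean rose to 2.08 times that of WT, from 284 ± 32.7 to 591 ± 140 FPKM. The log2 fold change was 1.03 (SE 0.17, 95% interval 0.64 to 1.43, limma adjusted p = 0.0131). The adjusted p was 0.0540 without WT library 1, 0.0522 without WT library 3, 0.0611 without KI library 1 and 0.0586 with no filter.

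Other genes known as higher in male liver moved with Elovl3. Of a list of 10, 9 were called higher, against 1.64% of all genes tested, and in 10 of 10 every KI library was above every WT library, against 6.31%. The list was chosen with earlier results of these data known, so its counts are descriptions. The summed FPKM of that list was 4282 to 7398 in WT and 15422 to 20406 in KI. Among them Cyp7b1, an oxysterol hydroxylase, went from 52.5 ± 6.96 to 212 ± 77.5 FPKM (log2 fold change 1.94, limma adjusted p = 0.00319), and Ugt2b38 was the one not called (0.29, adjusted p = 0.148). Of 13 clock genes 2 were called, both lower, against 6.09% of all genes tested: Per1, a repressor of the clock (log2 fold change -1.04, limma adjusted p = 0.0268), and Ciart, another repressor (-0.70, adjusted p = 0.0331). The labels give neither the sex of the mice nor the hour of collection. The study describes the livers of its high-fat diet mice as from males, without tying that to these libraries, and the part of either in the result for Elovl3 was not tested.

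Elovl6, which turns palmitate into stearate (ENSMUSG00000041220, chromosome 3 from 129527467 to 129638495, + strand), was at 26.8, 21.1 and 14.4 FPKM in WT and at 5.99, 6.90 and 15.3 FPKM in KI. KI library 3 lay above WT library 3, so the groups overlapped, and the other 2 KI libraries were below every WT library. The mean was 20.7 ± 6.20 FPKM in WT and 9.41 ± 5.15 FPKM in KI, a log2 fold change of -1.13 with the largest error of the 10 genes (SE 0.33, 95% interval -1.88 to -0.38, limma adjusted p = 0.0768, exact permutation p = 0.2). Without KI library 3 the log2 fold change was -1.51 and the gene was called (adjusted p = 0.00983), and it was also called after rescaling to TPM (adjusted p = 0.0492). An antisense gene, Gm35986, overlaps Elovl6, and without a stated strand setting their reads cannot be told apart. Gm43072 overlaps Elovl6 on the same strand, where a strand setting would not separate the reads.

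Elovl1, which makes saturated and monounsaturated very long chains for sphingolipids (ENSMUSG00000006390, chromosome 4 from 118428093 to 118437352, + strand), was at 28.5, 25.5 and 28.0 FPKM in WT and at 24.5, 26.7 and 25.0 FPKM in KI. The groups overlapped, and the log2 fold change was -0.10 (95% interval -0.29 to 0.08, limma adjusted p = 0.504). The interval listed for Elovl1 spans 9.26 kb, against 4.86 kb in the GENCODE annotation, and overlaps Cdc20 on the other strand, so its level may hold reads of that gene.

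None of the 3 other desaturases, Fads3, Fads6 and Scd2, was called under any alternative. Fads3, which adds a double bond to sphingoid bases and lies 2.66 kb from Fads2 in the GENCODE annotation (ENSMUSG00000024664, listed at chromosome 19 from 10041548 to 10059671, + strand), was at 2.81, 3.17 and 2.36 FPKM in WT and at 1.61, 2.56 and 1.92 FPKM in KI. One KI library exceeded one WT library, and the log2 fold change was -0.33 (95% interval -0.65 to 0.0018, limma adjusted p = 0.214). Fads6, a desaturase whose substrate is not settled (ENSMUSG00000044788, chromosome 11 from 115279622 to 115297663, - strand), was at 19.4, 28.4 and 23.9 FPKM in WT and at 23.0, 26.2 and 29.2 FPKM in KI. These values were interleaved, with a log2 fold change of 0.13 (95% interval -0.20 to 0.46, limma adjusted p = 0.641).

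Scd2, the stearoyl-CoA desaturase known mainly from brain and from the liver before weaning (ENSMUSG00000025203, chromosome 19 from 44293676 to 44306864, + strand), was at 1.810, 1.355 and 1.150 FPKM in WT and at 0.9998, 1.770 and 1.018 FPKM in KI. Its groups overlapped, with KI library 2 near the highest WT value, and the log2 fold change was -0.12 (95% interval -0.49 to 0.26, limma adjusted p = 0.728). Scd2 is a close copy of Scd1, which lies 87.6 kb away and was far more abundant: Scd2 was 0.0442% to 0.0661% of the Scd1 level in WT and 0.0728% to 0.235% in KI, so a small share of misassigned Scd1 reads would be of the size of the Scd2 level. All 8 adipocyte markers are given here, a choice made after their values were seen, and several were highest in KI library 2. Adipoq, Plin1, Lep and Retn were at 4.55, 3.32, 3.98 and 1.59 FPKM there and at 0.127 FPKM or less in every other library. Slc36a2 was at 0.510 FPKM there and at 0.0386 FPKM or less elsewhere. Cfd was at 0.112, 2.54 and 0.821 FPKM in the KI libraries and at 3.10 to 8.62 FPKM in WT, Adrb3 was high in all 3 KI libraries, and Adig was highest in KI library 1. Without KI library 2 the log2 fold change of Scd2 was -0.27 (adjusted p = 0.254) and that of Elovl3 was 0.88 (adjusted p = 0.0212). Over the 15 alternatives the log2 fold change of Scd2 ran from -0.27 to -0.009.

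**Figure D3:**
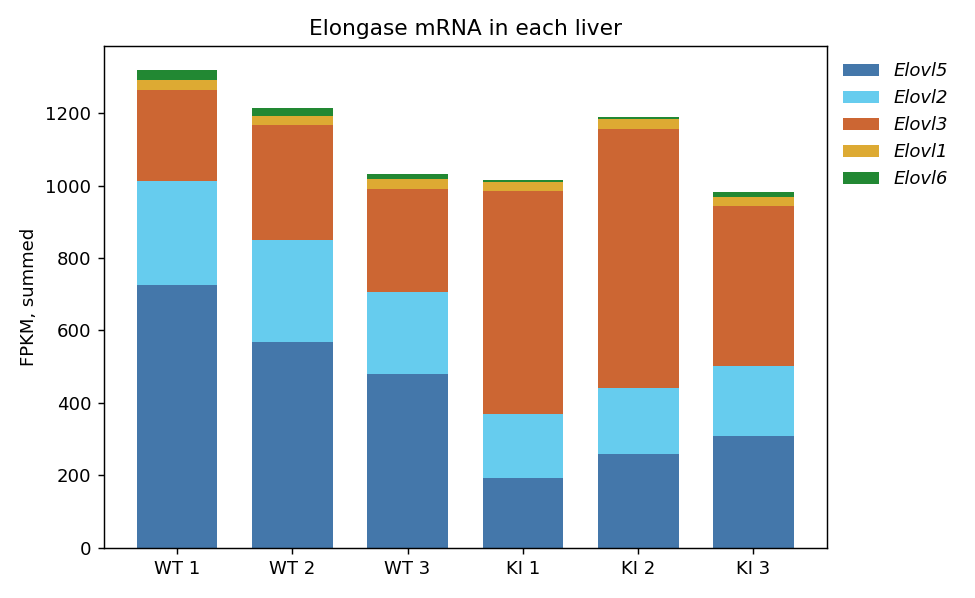
FPKM of Elovl5, Elovl2, Elovl3, Elovl1 and Elovl6 stacked for each of the 6 libraries, on an axis from 0. The heights overlap between the genotypes, from 984 to 1320 FPKM over all 6, while Elovl3 takes 19.1% to 27.3% of the elongase sum in WT and 44.7% to 60.7% in KI.

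With Elovl5 lower and Elovl3 higher, the makeup of the elongase mRNAs differed between the genotypes while their sum overlapped. FPKM summed over Elovl1 to Elovl7 were 1320, 1215 and 1032 in WT and 1017, 1191 and 984 in KI. Elovl5 was 54.9%, 46.9% and 46.4% of that sum in WT and 18.9%, 21.6% and 31.3% in KI. Elovl2 and Elovl5 together, the elongases of polyunsaturated chains, were 68.5% to 76.8% of the sum in WT and 36.3% to 51.2% in KI. In every WT library Elovl5 was above Elovl3, at 1.70 to 2.88 times its level, and in every KI library it was below, at 0.312 to 0.700 times. These sums and ratios describe the 6 libraries and carry no test, since they follow from the genes already tested.

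In the desaturases, Fads2 and Fads1 made up 95.7% to 97.3% of the 4 Fads genes in WT and 91.9% to 93.4% in KI. The summed Fads level was 808, 729 and 668 FPKM in WT and 304, 368 and 468 FPKM in KI, so no KI library reached the lowest WT library. Fads2 and Elovl5, which act one after the other, had ratios that overlapped between the genotypes: Fads2 was 0.681, 0.774 and 0.867 times Elovl5 in WT and 0.860, 0.823 and 0.865 times in KI. Elovl5 was at 2.02 to 2.51 times the level of Elovl2 in WT and at 1.09 to 1.58 times in KI, without overlap.

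Libraries of one genotype kept the same order in 5 of the 10 genes. Among Fads2, Elovl5, Fads1, Elovl2 and Elovl6, KI library 3 was the highest and KI library 1 the lowest KI library in 5 of 5, and WT library 1 was the highest and WT library 3 the lowest WT library in 5 of 5. These 5 genes were picked for that order after their values were seen, and the other 5 did not share it: KI library 2 was the highest KI library in Elovl3, Elovl1, Fads3 and Scd2, and WT library 2 was the highest WT library in Fads6. Relative to the WT mean of each gene, KI library 1 was at 36.8% for Fads2, 32.6% for Elovl5, 44.2% for Fads1, 66.3% for Elovl2 and 28.9% for Elovl6. KI library 3 was at 59.2%, 52.1%, 65.9%, 73.3% and 73.9% for the same genes. The spread within KI liver was thus widest for Elovl6, with a coefficient of variation of 54.8%, and narrowest among these for Elovl2, at 5.05%.

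**Figure D4:**
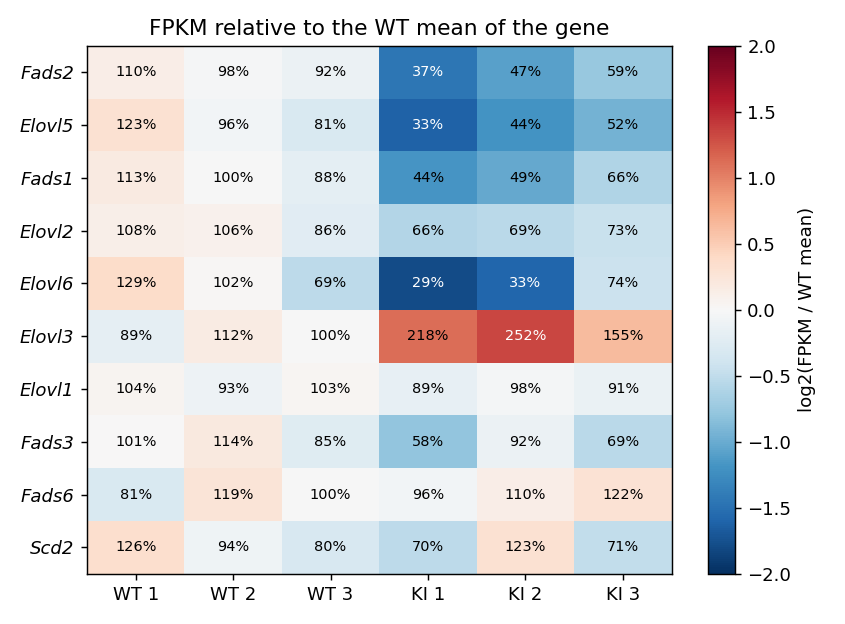
FPKM of each gene in each library as a percent of the WT mean of that gene, coloured on a log2 scale from blue (lower) to red (higher). KI library 1 holds the lowest and KI library 3 the highest KI value in Fads2, Elovl5, Fads1, Elovl2 and Elovl6, and Elovl3 runs from 155% to 252% of the WT mean in KI.

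By the correlation of log2(FPKM + 1) over the 6 libraries, the genes most like Elovl5 were Cdk4, a cell cycle kinase (r = 0.996), Gm3534 (r = 0.994) and Gm561 (r = 0.993), and 217 genes had r of at least 0.95. For Elovl3 they were Plg, plasminogen (r = 0.999), Serpina1a, an alpha-1-antitrypsin (r = 0.993), and Slc35e2 (r = 0.992), and 56 genes reached that level. Their own changes were smaller: the log2 fold change was -0.36 for Cdk4, -0.44 for Gm3534 and -0.55 for Gm561, and 0.20 for Plg, 0.31 for Serpina1a and 0.38 for Slc35e2. These likenesses describe 6 points that fall into 2 genotypes, and Serpina1a belongs to a family of near-identical copies whose reads may be shared.

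The genes that work with elongases and desaturases were examined as lists, whose counts stand against 6.09% of all genes tested called lower, 1.64% called higher and a median of -0.08. Of the 7 other elongase and desaturase genes 2 were tested. Degs1, which makes ceramide from dihydroceramide, fell from 42.3 ± 2.07 to 33.2 ± 2.15 FPKM (log2 fold change -0.34, limma adjusted p = 0.0412). Scd1, the main stearoyl-CoA desaturase of liver, was at 3773, 3069 and 1741 FPKM in WT and at 426, 1050 and 1399 FPKM in KI. Its groups did not overlap, and the spread within both was wide (log2 fold change -1.67, SE 0.43, limma adjusted p = 0.0560). Elovl4, Elovl7, Scd3, Scd4 and Degs2 were below the filter, with no library above 0.387 FPKM.

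Of the 6 partners of the elongation cycle 1 fell, Hsd17b12, the ketoacyl-CoA reductase (140.5 ± 5.61 to 109.5 ± 4.94 FPKM, log2 fold change -0.36, limma adjusted p = 0.0250), and Tecr, which closes the cycle, was not called (-0.20, adjusted p = 0.208). Of the 5 electron donors tested 1 fell, Cyb5a, the cytochrome b5 of the desaturases (619 ± 67.1 to 436.5 ± 44.4 FPKM, log2 fold change -0.50, adjusted p = 0.0301). The list medians were -0.14 and -0.32. Of 6 genes of malonyl-CoA and palmitate supply, a list that also holds Mlycd, the decarboxylase that removes malonyl-CoA (log2 fold change -0.31, limma adjusted p = 0.129), 2 fell: Me1, malic enzyme, which makes NADPH (log2 fold change -1.39, adjusted p = 0.00304), and Fasn, fatty acid synthase (-1.33, adjusted p = 0.0317), and the list median was -0.68.

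Peroxisomal chain shortening, through which docosahexaenoate is finished from a longer precursor, had the most calls of these lists, with 6 of 8 lower (6.09% of all genes tested), 0 higher and a median of -0.63. Acaa1b, a peroxisomal thiolase, fell by 1.16 on the log2 scale (limma adjusted p = 0.000725), though Acaa1a is a near-identical copy whose reads may be shared. Abcd2, a transporter of very long chains into the peroxisome, was at 10.4, 7.05 and 8.44 FPKM in WT and at 2.37, 2.37 and 3.70 FPKM in KI, without overlap (-1.34, adjusted p = 0.00489). Among the users of the chains, where the same 6.09% of all genes applies, 2 of 7 acyl-CoA synthetases tested fell, Slc27a4 (-0.37, adjusted p = 0.0321) and Acsl5 (-0.47, adjusted p = 0.0480). In the 4 ceramide synthases tested 1 fell, Cers6 (-0.69, adjusted p = 0.0367). Among 6 phospholipid acyltransferases tested 0 were called, including Lpcat3, which places arachidonate in phospholipids (-0.25, adjusted p = 0.237). The medians of these 3 lists were -0.14, -0.15 and -0.12.

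**Figure D5:**
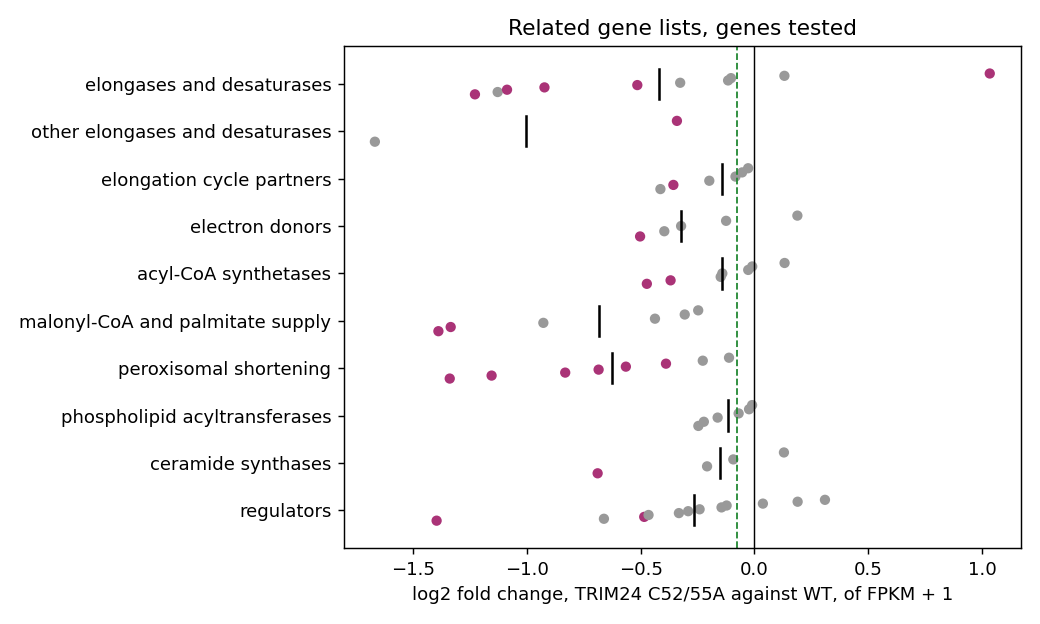
Log2 fold change of FPKM + 1 for each tested gene of the 10 elongases and desaturases and of 9 related lists; purple points have an adjusted p under 0.05, black bars are list medians and the dashed line is the median of all genes tested. In the peroxisomal list 6 of 8 genes are purple, all left of 0, and Elovl3 is the single purple point right of 0.

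Of the 12 known regulators of these genes 2 were called, both lower, against 6.09% of all genes tested, with a list median of -0.27. Pparg, a nuclear receptor of lipid storage, changed by -1.40 (limma adjusted p = 0.00491), and Nr1h2, which encodes LXRbeta, by -0.48 (adjusted p = 0.0342). Srebf1, which encodes SREBP-1c, was at 63.2, 76.0 and 82.1 FPKM in WT and at 42.1, 72.4 and 48.3 FPKM in KI, and the groups overlapped (-0.47, adjusted p = 0.185). Nr1h3, which encodes LXRalpha (-0.14, adjusted p = 0.398), Ppara (-0.29, adjusted p = 0.407), Insig2, a retainer of SREBP (-0.66, adjusted p = 0.0607), and Mlxipl, which encodes ChREBP (0.31, adjusted p = 0.161), were not called. These are mRNA levels, and processing of SREBP and ligands of the receptors were not measured.

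Markers of other cells were compared between the genotypes, since the samples were whole liver, and their counts stand against 6.09% of all genes tested called lower and 1.64% called higher. Of 7 hepatocyte markers 2 fell, Apoa2 (log2 fold change -0.60, limma adjusted p = 0.00948) and Cyp2e1 (-0.54, adjusted p = 0.0318), and the summed list was 33154 to 34586 FPKM in WT and 27933 to 30286 FPKM in KI, without overlap. Apoa2 carried most of that difference: without it the sum was 19730 to 20451 FPKM in WT and 18844 to 21602 FPKM in KI, with overlap. Serpina1c was above every WT library in every KI library, with a log2 fold change of 0.27 (adjusted p = 0.118). Of the 5 adipocyte markers tested 1 was called, Adrb3, higher (log2 fold change 1.86, adjusted p = 0.000716), and the sum was 5.39 to 10.8 FPKM in WT and 8.36 to 29.0 FPKM in KI. Adrb3 alone was at 7.81, 12.4 and 10.6 FPKM in KI libraries 1, 2 and 3, where the sums were 8.36, 29.0 and 11.45 FPKM. Cfd went the other way, with every KI library below every WT library. No macrophage, stellate, cholangiocyte or lymphocyte marker was called of 6, 6, 3 and 2 tested, and of 5 endothelial markers 1 fell, Lyve1 (log2 fold change -1.26, limma adjusted p = 0.0281). The summed macrophage markers were 91.9 to 120 FPKM in WT and 82.7 to 112 FPKM in KI, and the endothelial, stellate and cholangiocyte sums also overlapped. The lymphocyte sum was 4.06 to 5.08 FPKM in WT and 3.21 to 3.74 FPKM in KI. The part of cell makeup in the changes of the elongases and desaturases was not tested.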

How the data were processed

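RNA-Seq of liver was made in 3 WT and 3 TRIM24 C52/55A libraries. The deposited values are FPKM per gene, 1 table per library, as the authors made them. The submitters' processing notes name bcl2fastq, Salmon 0.14.0, DESeq2 1.30.0 and GRCm38, but how the FPKM values were computed is not given in the sources used here. Genes that a table does not list were set to 0. Depth is unknown, so no counting interval could be given.

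The 12225 genes whose mean over the 6 libraries reached 0.5 FPKM were tested with limma 3.58.1 (R 4.3.3) on log2(FPKM + 1). The variance prior followed the mean level, and p-values were adjusted over all of them (Benjamini-Hochberg). This scale understates the changes of low genes. The test was also run on simulated data with 200 changed genes, drawn independently for each gene, and the outcome is not reported here. Single genes were also compared by an exact two-sided permutation test in scipy 1.17.1. Coordinates are GRCm38, counted from 1. Promoter sequences are from RefSeq, GRCm38.p6, and overlapping genes from GENCODE.

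Named genes are the 10 members, all other elongases and desaturases, Srebf1, Pparg, Ppara, Nr1h3, Fasn and Scd1, at most 4 genes of each further list by smallest adjusted p, and the 3 genes most like the largest rise and fall. Outside this rule, and after values were seen, Adipoq, Retn, Adig, Slc36a2, Ugt2b38 and Acaa1a were named, and Trim24 as the edited gene. Members and lists were chosen with earlier results of these data known, so list counts are descriptions. Alternatives were another pseudocount (0.1), filter or scaling, no trend, robust moderation, a replicate block and leaving out each library. Alb was not analysed here, and some genes that the rule names are not reported here.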

Additional observations from a re-analysis of the deposited data

How the results depend on the processing

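The 10 elongase and desaturase genes were refitted under 15 alternatives. All genes called went from 944 to 347 with no filter on low values, 1555 after rescaling to TPM, 578 with the replicate block, and 296 to 1272 with 1 library left out. Members called went from 5 to 1 with no filter, and to 2 to 6 with 1 library left out. Genes called in the further lists went from 31 to 14 with no filter, and to 14 to 33 with 1 library left out. The log2 fold change of Elovl1 turned from -0.10 to 0.0325 after quantile normalization, and that of Fads6 went from 0.13 to between -0.0034 (without WT library 1) and 0.26 with 1 library left out, and neither was called under any alternative. Elovl6 was called under 2 alternatives. The causes were not tested beyond the fewer libraries or the larger number of genes tested (21528).

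Same-numbered libraries did not deviate together (correlations -0.12, -0.10 and 0.0027), 0 of 3 WT libraries correlated best with their own number, and the labels do not say what a number shares, so the numbers were not taken as pairs. Among the members the replicate block changed only the call of Elovl2.

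Depth is unknown, and 3 libraries per genotype limit the precision (the widest of the members' 95% intervals was that of Elovl6, -1.88 to -0.38).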
